A study of Mus musculus with 6 samples.

Results

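Integrated stress response genes, 37 named members of the 54532 genes in the deposited table, were compared between mouse bone stromal cells with intact Zeb1 and cells in which Zeb1 was targeted. The members were taken by gene name. They were chosen from values measured in these 6 libraries, so their difference between genotypes is given as a description, with no test. They comprised 8 transcription factors, 11 enzymes of amino acid and one-carbon synthesis, 7 amino acid transporters, and 11 feedback regulators and stress effectors. In 18 of the 37 every Zeb1Prx1 library lay above every WT library, in 19 the genotypes overlapped, and in 0 every mutant library was lower. Of the 12534 expressed genes that were tested, 12.6% lay higher in this way and 11.8% lower. Trib3, Nupr1, Pycr1, Ddit3, Chac1, Asns and Atf4 itself were among the members with the highest ratios of mutant to WT mean, between 1.67 and 2.68.

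The integrated stress response is a signalling route that 4 kinases share. Lack of amino acids, misfolded protein in the endoplasmic reticulum, double-stranded RNA or lack of haem each activate a kinase that phosphorylates the initiation factor eIF2, which slows translation in general and favours translation of a few messages, Atf4 among them. The Atf4 protein, paired with other leucine zipper factors, then activates genes of amino acid uptake and synthesis, genes that restore translation and, under lasting stress, genes of cell death. In the bone lineage, Atf4 is known for its role in osteoblasts, where it supports amino acid import and collagen production.

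Both genotypes carried Prx1-Cre, a transgene that expresses Cre recombinase in limb bud mesenchyme, and a ROSA-YFP reporter. WT cells were Zeb1wt/wt and Zeb1Prx1 cells Zeb1fl/fl, each with 3 libraries from untreated cells, and no age or sex was given in the sources used here. Chips of femur and tibia, treated with collagenase for 1 h, were grown in medium with 10% serum, and fluorescent cells were then sorted. Nothing in the labels ties replicates to different mice or dishes, so SDs, SEs and p-values cover the spread between these libraries, which may be technical.

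Zeb1, the targeted gene, had 6.62, 10.3 and 7.12 FPKM (fragments scaled by gene length and a library total) in WT replicates 1 to 3. Zeb1Prx1 replicates 1 to 3 had 1.92, 1.59 and 2.84. Libraries held 14724357 to 18354894 assigned fragments. The library total behind the FPKM was 1.043, 0.993 and 1.043 times the assigned fragments in WT replicates 1 to 3. In Zeb1Prx1 replicates 1 to 3 it was 1.003, 0.982 and 0.973 times the assigned fragments. Zeb1Prx1 replicate 2 stood apart, with an FPKM sum of 372566 against 278987 to 312038 in the others and shorter transcripts on average, so the ratio without it is given for each member in which it was the highest mutant library. Markers of Prx1-lineage stroma were present (12 listed, summed FPKM 2156 to 3290 in WT and 2810 to 5690 in Zeb1Prx1). Most of each sum was Col1a1, Col1a2 and Col3a1. Col1a2 was higher and Pdgfrb lower in every mutant library, beside 12.6% and 11.8% of all tested genes. Lepr and Twist2 were at most 1.26 and 0.874 FPKM. Dcn and Lum varied from 3.30 to 576 and from 2.10 to 695 FPKM between libraries. By contrast, 16 macrophage markers summed to 13046 to 15839 in WT and 10736 to 21788 in Zeb1Prx1, the highest in replicate 2. Most of the replicate 2 sum was Lyz2, at 16368 FPKM. Tyrobp, Fcer1g, C1qb, C1qc, Cd14 and Aif1 were also at their highest in replicate 2. Adgre1, Csf1r, Cd68, Ptprc, Mrc1, Cx3cr1 and Laptm5 lay below every WT library there. Of the macrophage markers 0 were at 0, and 6 of 16 were lower in every mutant library, beside 11.8% of all tested genes. Osteoclast markers summed to 35.9 to 47.9 in WT and 55.2 to 72.3 in Zeb1Prx1, every mutant library being higher. Most of each sum was Ctsk (27.6, 39.1 and 35.5 FPKM in WT, 49.0, 66.2 and 56.1 in Zeb1Prx1). Of the 7, Ctsk and Dcstamp were higher and Mmp9 and Atp6v0d2 lower in every mutant library. Dcstamp was near the limit of detection, at most 0.234 FPKM, with 0.1475 in mutant replicate 3 against 0.1465 in WT replicate 2. Neutrophil, erythroid and endothelial lists stayed at or below a sum of 1.79 in each library, with S100a9 and Hba-a1 at 0 in all 6. Epithelial markers summed to at most 0.542 in WT and to 7.70, 3.43 and 18.0 in Zeb1Prx1 replicates 1 to 3. Most of the mutant sum was Krt8 in replicates 1 and 3 (6.55 and 15.2 FPKM) and Krt18 in replicate 2 (2.12). The part of these cell types in the values that follow was not tested, and in such bulk libraries a changed number of cells and changed RNA per cell cannot be told apart.

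In the fit over the whole table (limma on log2(FPKM + 1)), 0 of 12534 genes passed an adjusted p of 0.05, which is 0% of them. At an unadjusted p under 0.05, 1022 genes were higher and 875 lower, and voom on recovered fragment numbers also called 0, with 747 and 1184. With a weight for each library, which gave Zeb1Prx1 replicate 2 the lowest, 447 genes passed (268 higher and 179 lower, 3.57% of those tested). Higher among these were 7 members, Atf4, Ddit4, Trib3, Chac1, Asns, Pycr1 and Slc1a4, from which nothing is read because the members were chosen on this contrast. The same fit gave a log2 change for the 36 members with at least 1 FPKM in 3 or more libraries. Cbs, with 2 to 16 fragments per library, did not reach this level. The log2 change was above 0 in 34 of the 36, beside 51.9% of all tested genes. Its median was 0.48 against 0.02 over all tested genes, with a range from -0.46 to 1.34. Without Zeb1Prx1 replicate 2 the median was 0.47, and 21 members lay higher with no overlap, beside 17.2% of all tested genes.

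The size of this shift depends on how the libraries are set to a common scale. When all 6 libraries were given the same FPKM sum, the median of all tested genes moved from 0.02 to -0.12 and that of the members from 0.48 to 0.32, so the members stood 0.44 above all genes in place of 0.46. On that scale 27 of 36 members and 36.5% of all tested genes were above 0, and 10 members lay higher with no overlap, beside 7.93% of all genes. After quantile scaling the members stood 0.42 above all genes, and 14 lay higher with no overlap, beside 10.85% of all genes. With the length trend removed they stood 0.37 above, and 12 lay higher with no overlap, beside 11.75%. By voom, which scales to the fragments of tested genes, the members' median was 0.47 and that of all genes -0.04. Atf4, Ddit3, Trib3, Asns, Pycr1, Nupr1, Cebpg and Eif4ebp1 lay higher in every mutant library as deposited, after equal FPKM sums, after median-of-ratios and quantile scaling, and after removal of the length trend. These 8 were 21.6% of the 37 members, and 5.88% of all tested genes did the same. Median-of-ratios scaling barely changed the deposited values (members' median 0.48 in both), so it was not a separate check.

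**Figure D1:**
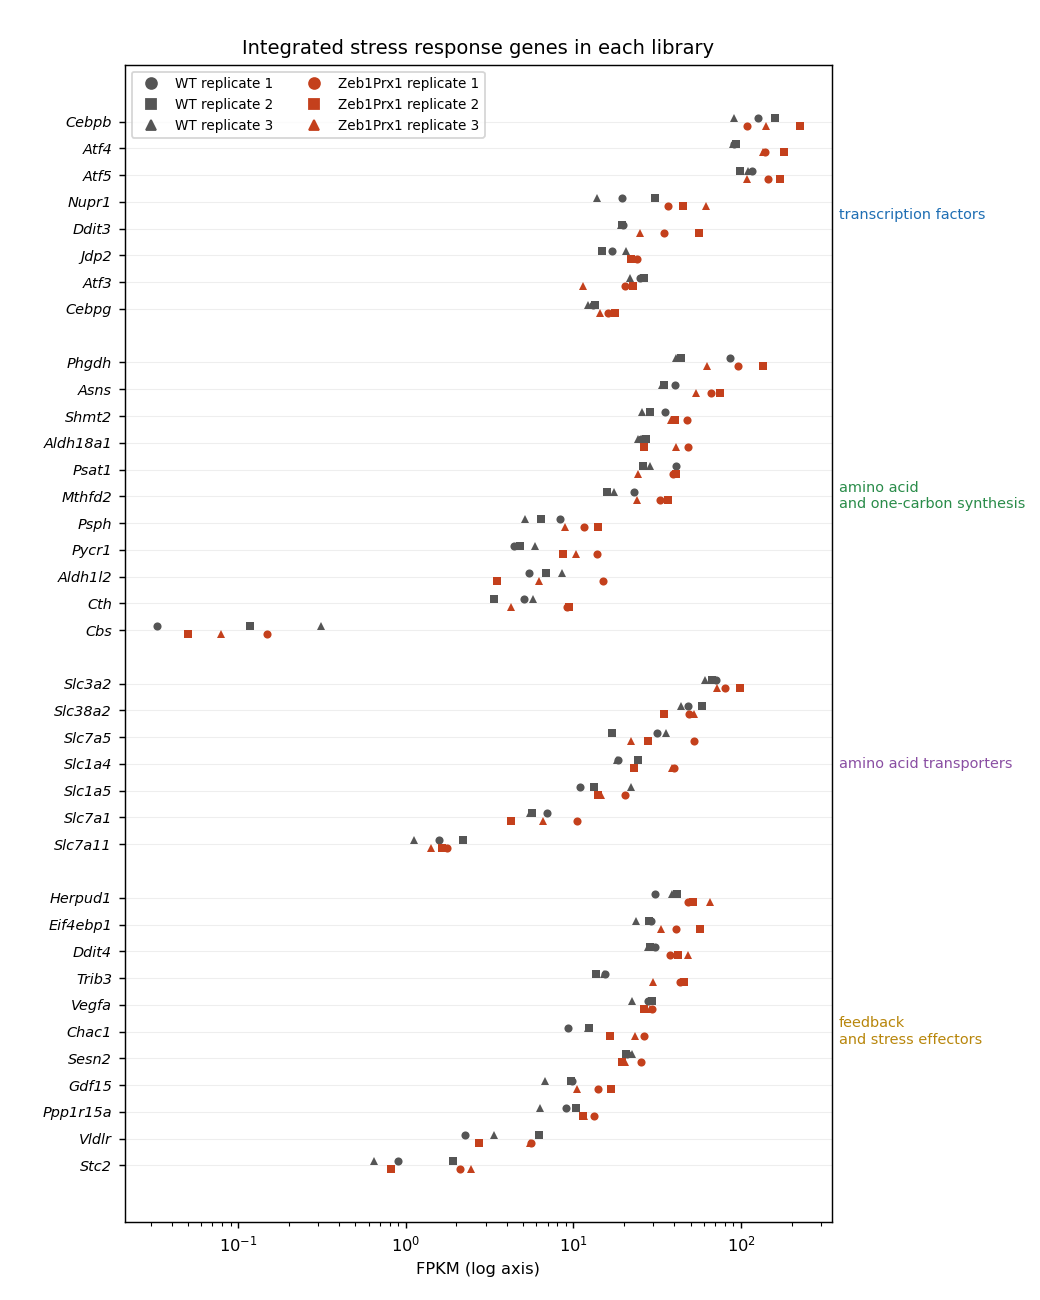
FPKM of each of the 37 members in each of the 6 libraries, on a log axis, with WT in grey and Zeb1Prx1 in red, a symbol for each replicate number, and members ordered within their role by mutant mean. Red points lie to the right of all grey points in 18 members, Trib3 most clearly, while Atf3, Slc38a2 and most transporters overlap.

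The promoters of members were searched for the amino acid response element, the sequence to which Atf4 binds together with a C/EBP partner, since these genes are grouped by this factor. RefSeq promoters (GRCm38.p6) were found for 32 of 37 members; Eif4ebp1, Aldh1l2, Slc1a5, Cth and Slc7a5 are not shown. TGATGNAA, on either strand within 250 bases before the start site, was present in 9 of the 32 members (28.1%) and in 1056 of 27025 genes of the table (3.91%). The stretches that follow show these 9, read 5′ to 3′ along the gene, with the element in capitals; TTGCATCA is the same element on the opposite strand.
Asns: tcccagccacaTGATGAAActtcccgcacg
Chac1: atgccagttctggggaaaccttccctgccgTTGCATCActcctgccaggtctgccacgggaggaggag
Pycr1: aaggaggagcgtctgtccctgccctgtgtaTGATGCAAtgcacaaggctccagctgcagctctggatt
Nupr1: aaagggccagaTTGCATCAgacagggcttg
Herpud1: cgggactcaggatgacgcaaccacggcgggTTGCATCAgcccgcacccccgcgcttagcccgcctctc
Jdp2: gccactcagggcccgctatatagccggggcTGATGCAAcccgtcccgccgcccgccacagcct
Atf3: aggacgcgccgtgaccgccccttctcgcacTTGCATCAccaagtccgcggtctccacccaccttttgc
Slc7a11: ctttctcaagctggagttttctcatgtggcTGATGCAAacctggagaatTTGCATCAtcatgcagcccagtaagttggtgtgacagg
Vldlr: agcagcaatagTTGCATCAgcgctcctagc
The Asns stretch lies on chr6:7693214-7693243 (minus strand), with its element 16 to 23 bases before the start, and it alone reads TGATGAAA; the other 8 carry TGATGCAA. Chac1 is shown at chr2:119351019-119351086 (plus), Pycr1 at chr11:120643814-120643881 (minus) and Nupr1 at chr7:126625562-126625591 (minus). Herpud1 lies at chr8:94386287-94386354 (plus), Jdp2 at chr12:85599353-85599415 (plus), Atf3 at chr1:191183406-191183473 (minus) and Vldlr at chr19:27216809-27216838 (plus). The Slc7a11 stretch, chr3:50443623-50443709 (minus), holds 2 copies within 40 to 66 bases before the start. Asns, Nupr1 and Vldlr stretches overlap an annotated exon and are cut to 30 bases for that reason.

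Carriers of the element included members with and without overlap between genotypes. Of the 9 carriers, Asns, Chac1, Pycr1, Nupr1, Herpud1 and Jdp2 lay higher in every mutant library, whereas Atf3, Slc7a11 and Vldlr overlapped between genotypes. Of all tested genes 12.6% lay higher in this way. The members were chosen on this contrast, so nothing is read from the comparison. Atf4, Trib3 and Ddit3, also higher in every mutant library, had no TGATGNAA in this window. CAGGTG or CAGGTA, E-box sequences that Zeb1 is known to bind, occurred in 7 of the 32 members (21.9%) and 28.2% of all genes; Atf4, Atf5 and Gdf15 were among these 7, with Phgdh, Slc38a2, Stc2 and Vegfa. TGACG, the core of a cyclic AMP response element, which can overlap other motifs, was in 13 members (40.6%) and 19.8% of genes, and the ER stress element (CCAAT, 9 bases of any kind, then CCACG) in 0 members and 0.13% of genes. These motifs were searched on both strands of the same window. A match describes the letters of the window, and binding was not measured.

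Among the factors, 5 of 8 lay higher in every mutant library, beside 12.6% of all tested genes. Their median log2 change was 0.37, beside 0.02 over all tested genes. Atf4 (ENSMUSG00000042406, mm10 chromosome 15, 80255184 to 80257541, plus strand), the factor at the centre of the pathway, had 90.6, 93.9 and 88.9 FPKM in WT replicates 1 to 3 and 139.6, 181 and 135 in Zeb1Prx1 replicates 1 to 3. The WT libraries lay close together, and the lowest mutant library was 44.1% above the highest WT library. The ratio of means was 1.67 (1.51 without Zeb1Prx1 replicate 2), and the log2 change 0.72 (SE 0.18, n = 3 per genotype). This log2 change was smaller after equal FPKM sums (0.55), after quantile scaling (0.46) and with the length trend removed (0.55). It was 0.72 after median-of-ratios scaling, which barely changed the deposited values. Much of the control of Atf4 acts on its translation, and neither Atf4 protein nor eIF2 phosphorylation was analysed here.

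Ddit3 encodes CHOP, a leucine zipper factor of late stress and cell death, and had 19.8, 19.6 and 19.2 FPKM in WT against 34.8, 56.2 and 25.1 in Zeb1Prx1. The genotypes did not overlap, but the mutant libraries spread widely, from replicate 3 to replicate 2. The ratio of means was 1.98, or 1.53 without replicate 2, and the log2 change 0.88 (SE 0.28). A second row named Ddit3, with a length of 105 bases inside the same locus on chromosome 10, was at 0 in all libraries. Reads of overlapping genes cannot be told apart, since the use of strand in counting is not given in the sources used here.

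Nupr1, a small stress-induced chromatin protein, had WT levels of 19.4, 30.8 and 13.9 FPKM and mutant levels of 36.9, 45.0 and 62.0. Unlike Ddit3, its highest mutant library was replicate 3, and the ratio of means was 2.25 with a log2 change of 1.17 (SE 0.32). Cebpg, a dimer partner of Atf4, had 13.2, 13.4 and 12.2 FPKM against 16.2, 17.6 and 14.5, a small and even difference (ratio 1.25, or 1.19 without replicate 2). Jdp2, a repressor of the AP-1 family, had 17.1, 14.8 and 20.6 against 23.9, 21.9 and 22.8, with a ratio of 1.31. The mutant libraries of Jdp2 lay closer together than its WT libraries.

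Atf5, a relative of Atf4 whose translation is controlled in the same manner, had 116, 98.0 and 109 FPKM in WT against 144, 171 and 108 in Zeb1Prx1. Mutant replicate 3 fell among the WT values, so the genotypes overlapped, and the ratio of 1.31 became 1.17 without replicate 2. Cebpb, another C/EBP partner, varied widely between libraries (125 ± 33.6 FPKM in WT, 158 ± 59.7 in Zeb1Prx1, SD, n = 3), and its ratio of 1.26 was 0.994 without replicate 2. Atf3, a stress-induced factor that acts mostly as a repressor, had a lower mean in the mutant. It had 24.8, 26.3 and 21.8 FPKM in WT and 20.4, 22.6 and 11.3 in the mutant. Mutant replicate 2 lay within the WT range and the other 2 mutant libraries below it. The ratio of means was 0.744 (0.652 without replicate 2) and the log2 change -0.46 (SE 0.26), and the genotypes separated, with Atf3 lower, after equal FPKM sums, quantile scaling or removal of the length trend.

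Enzymes of amino acid and one-carbon synthesis had the highest median log2 change of the 4 roles, 0.62 over 10 tested members, all above 0 as deposited; Psat1 and Aldh1l2 were below 0 after equal FPKM sums. The order of roles held under each scaling, but without WT replicate 2 or Zeb1Prx1 replicate 1 the effectors had the higher median (0.63 against 0.58, and 0.59 against 0.53). Asns, which makes asparagine from aspartate and glutamine, had 40.5, 34.9 and 33.8 FPKM in WT against 65.9, 74.8 and 54.1 in Zeb1Prx1. The lowest mutant library exceeded the highest WT library by 33.7%, and the ratio of means was 1.78 (log2 change 0.81, SE 0.18). Leaving out any single library kept this ratio between 1.65, without Zeb1Prx1 replicate 2, and 1.93.

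The serine branch has 3 steps, of which Phgdh catalyses the first, Psat1 the next and Psph the last. Psph had 8.25, 6.37 and 5.16 FPKM in WT and 11.5, 14.1 and 8.86 in the mutant, with no overlap and a ratio of 1.74 (1.55 without replicate 2). For Phgdh, WT replicate 1 (85.6 FPKM) lay above mutant replicate 3 (62.4), so the genotypes overlapped at 56.8 ± 25.0 and 97.7 ± 36.1 (SD, n = 3). Psat1 had 31.8 ± 7.89 in WT and 34.8 ± 9.15 in Zeb1Prx1. In the order of the steps the 3 ratios were 1.72, 1.09 and 1.74, and without replicate 2 those of Phgdh and Psat1 were 1.40 and 0.996. The difference between the enzymes was not tested.

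Serine carbon enters the mitochondrial folate cycle through Shmt2, which had 35.2, 28.7 and 25.6 FPKM in WT against 47.6, 40.6 and 38.4 in Zeb1Prx1. Mthfd2, which oxidises the folate-bound unit in the next step, had 22.8, 15.8 and 17.6 in WT and 32.8, 36.5 and 24.0 in Zeb1Prx1. Neither overlapped between genotypes, although WT replicate 1, the highest WT library for both, left a gap of only 8.90% to the lowest mutant library for Shmt2 and 5.05% for Mthfd2. The ratios were 1.41 and 1.66, that of Mthfd2 being 1.52 without replicate 2. Aldh1l2, which releases the unit as carbon dioxide, ranged from 3.48 to 15.0 FPKM over the mutant libraries. Its ratio of 1.19 became 0.701 without mutant replicate 1, the highest, and 1.53 without replicate 2, the lowest.

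Proline is made from glutamate by Aldh18a1 and then Pycr1. Pycr1 had 4.39, 4.79 and 5.91 FPKM in WT and 13.9, 8.71 and 10.4 in the mutant, all mutant libraries being at least 47.5% above the highest WT library. Its ratio of means was 2.19 (log2 change 0.98, SE 0.20), the largest among the enzymes, and 2.41 without replicate 2. Aldh18a1 had 25.6 ± 1.46 in WT and 38.4 ± 11.2 in Zeb1Prx1, where replicate 2, at 26.2, lay in the WT range. Of the transsulfuration enzymes, which turn homocysteine into cysteine, Cth had 4.71 ± 1.24 against 7.58 ± 2.89 FPKM with overlap, a ratio of 1.61 or 1.42 without replicate 2. Cbs was near the limit of detection at 0.154 ± 0.143 and 0.0924 ± 0.0510, and without WT replicate 3 its ratio of 0.601 became 1.24.

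**Figure D2:**
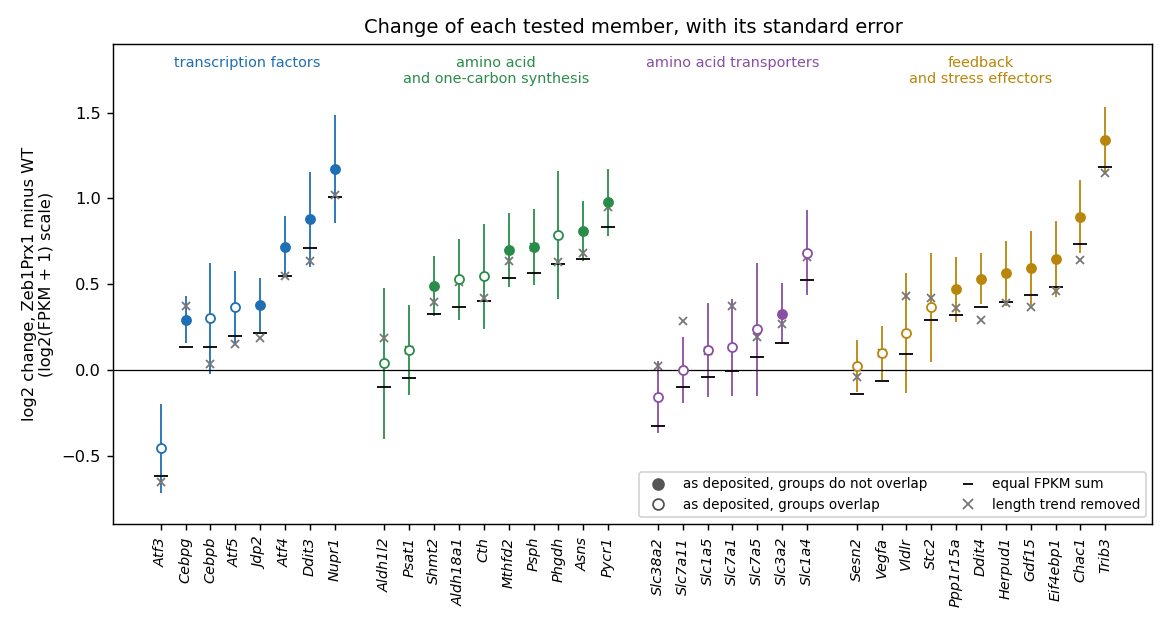
Log2 change of each of the 36 tested members with its standard error (n = 3 libraries per genotype), on the log2(FPKM + 1) scale, grouped by role; filled circles mark members whose genotypes do not overlap, bars the value after equal FPKM sums and crosses the value with the length trend removed. Most circles lie above 0, from -0.46 for Atf3 to 1.34 for Trib3, and the rescaled values of most members lie lower.

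Amino acid transporters had the lowest median log2 change of the 4 roles, 0.13 over 7 members. Higher without overlap was 1 member, beside 12.6% of all tested genes. The transporters' median was -0.01 after equal FPKM sums and -0.04 without Zeb1Prx1 replicate 1. With the length trend removed it was 0.27, beside 0.28 for the factors. That member was Slc3a2, the heavy chain that carries several transporters to the cell surface. It had 70.7, 67.1 and 60.5 FPKM in WT against 80.3, 98.8 and 72.2 in Zeb1Prx1, a gap of only 2.06% between mutant replicate 3 and WT replicate 1. Its ratio of means was 1.27, or 1.15 without replicate 2. Its light chain Slc7a11, which exchanges cystine for glutamate and carries 2 copies of the element, had 1.57, 2.20 and 1.12 FPKM in WT and 1.75, 1.64 and 1.41 in the mutant. All mutant values lay within the WT range, and the ratio was 0.981. These values rest on 240 to 471 fragments per library.

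The light chain Slc7a5, which imports large neutral amino acids, had 28.1 ± 9.78 FPKM in WT and 34.0 ± 16.1 in Zeb1Prx1 (SD, n = 3). Slc1a4, a carrier of alanine, serine and cysteine, had 20.2 ± 3.39 and 33.8 ± 9.37. It was the transporter with the highest log2 change (0.68), and overlapped because mutant replicate 2 (23.0) lay below WT replicate 2 (24.1). Slc1a5, the glutamine carrier, had 15.4 ± 5.89 and 16.3 ± 3.41 FPKM, and Slc7a1, for cationic amino acids, 6.05 ± 0.797 and 7.10 ± 3.18. Slc38a2, a sodium-coupled carrier of small neutral amino acids, had 50.2 ± 7.33 and 45.3 ± 9.41. Besides Atf3 it was the other member below 0 (log2 change -0.16), though above 0 with the length trend removed, with library weights and without Zeb1Prx1 replicate 2.

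Among the 11 feedback regulators and effectors, 7 lay higher in every mutant library, beside 12.6% of all tested genes. Their median log2 change was 0.53, beside 0.02 over all tested genes. Trib3, a pseudokinase that restrains Atf4 and CHOP, had 15.4, 13.7 and 15.2 FPKM in WT against 43.2, 45.4 and 29.9 in Zeb1Prx1. The lowest mutant library, replicate 3, stood 94.2% above the highest WT library. The ratio of means of 2.68 (log2 change 1.34, SE 0.19) was the highest of the members and was 2.48 without Zeb1Prx1 replicate 2, the lowest value with any single library left out.

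Chac1, which degrades glutathione, had 9.21, 12.4 and 12.2 FPKM in WT and 26.3, 16.5 and 23.4 in the mutant. Here mutant replicate 2 was the lowest, and the ratio of 1.95 became 2.20 without it. Ppp1r15a encodes GADD34, the subunit that directs phosphatase to eIF2 and so ends the response. It had 9.04, 10.4 and 6.34 FPKM in WT against 13.2, 11.4 and 11.6 in Zeb1Prx1, with no overlap and a ratio of 1.41. Eif4ebp1, which holds the cap-binding factor eIF4E inactive, had 29.1, 28.2 and 23.5 against 40.9, 57.0 and 33.1. Replicate 2 was its highest mutant library, and the ratio of 1.62 was 1.37 without it.

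Ddit4, an inhibitor of the growth kinase complex mTORC1, had 30.8, 28.6 and 27.9 FPKM in WT and 37.9, 42.1 and 48.1 in the mutant (ratio 1.47). Sesn2, another inhibitor of that complex, had 21.2 ± 0.896 and 21.7 ± 3.16 FPKM (SD, n = 3), and its log2 change of 0.02 was below 0 after equal FPKM sums, after quantile scaling, with the length trend removed, with library weights and by voom. Ddit4 thus lay higher in each mutant library, whereas Sesn2 overlapped. Herpud1, an endoplasmic reticulum membrane protein of misfolded protein disposal, had 30.7, 41.4 and 38.9 in WT and 48.4, 51.6 and 65.4 in Zeb1Prx1. Its ratio was 1.49, with replicate 3 the highest mutant library.

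Of the secreted effectors, Gdf15, a stress hormone that lowers appetite, had 9.85, 9.62 and 6.72 FPKM in WT against 14.1, 16.6 and 10.5 in Zeb1Prx1. It was higher in every mutant library, with a ratio of 1.57, or 1.41 without replicate 2, and a gap of 6.57%. Vegfa, the angiogenic growth factor, had 26.5 ± 3.71 and 28.3 ± 1.60 FPKM (SD, n = 3), and the glycoprotein hormone Stc2 1.15 ± 0.664 and 1.78 ± 0.857. Vldlr, a lipoprotein receptor, had 3.94 ± 2.06 and 4.61 ± 1.63. These last 3 overlapped between genotypes.

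The mutant libraries did not carry the members to the same degree. Set against the WT mean of each gene, the median member stood at a log2 difference of 0.60, 0.46 and 0.32 in Zeb1Prx1 replicates 1 to 3, and between -0.10 and 0.04 in the WT libraries; all tested genes stayed between -0.01 and 0.03. Replicate 3 was the highest mutant library for 5 of the 37 members (13.5%), beside 26.2% of tested genes, and the lowest for 18 (48.6%), beside 28.4%. Roles differed within a library as well. In replicate 2 the factors had a median of 0.77 and the transporters of 0.02, and in replicate 1 the factors had 0.43 and the transporters 0.43.

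Part of the order of the mutant libraries went with gene length. The ratio of replicate 2 to the mean of replicates 1 and 3 had a median of 1.24 in the 24 tested members shorter than 3989 bases, the median length of tested genes, and 0.743 in the 12 longer ones. Over all tested genes the same medians were 1.24 and 0.850. Across the 36 members the Spearman correlation of this ratio with length was -0.56, and across 12393 tested genes -0.46; the points share 3 libraries, and no test was made. Short Ddit3 (1713 bases) and Cebpb (1504 bases) had ratios of 1.88 and 1.80, and long Aldh1l2 (7503 bases) and Slc7a1 (11530 bases) 0.329 and 0.495. Chac1, short at 1637 bases, had 0.665 and Slc7a11, the longest at 13922, had 1.04, so members also departed from this trend.

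**Figure D3:**
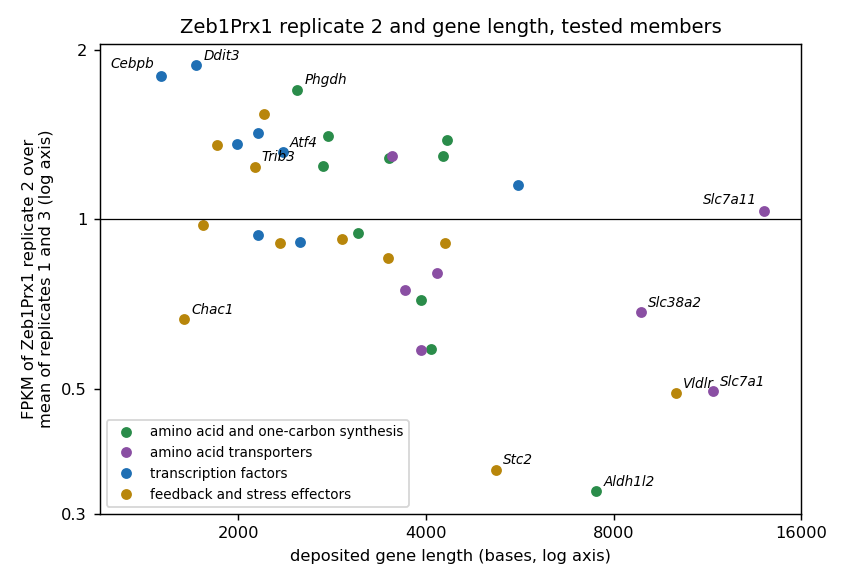
FPKM of Zeb1Prx1 replicate 2 divided by the mean of Zeb1Prx1 replicates 1 and 3 against deposited gene length in bases, both on log axes, for the 36 tested members, coloured by role. Ratios run from 1.88 for Ddit3 among short members down to 0.329 for Aldh1l2, with Chac1 and Slc7a11 away from this slope.

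Upstream of Atf4, the RNA levels of the eIF2 kinases overlapped between genotypes. Eif2ak3 (PERK, which senses misfolded protein in the endoplasmic reticulum) had 8.21 ± 1.39 FPKM in WT and 9.15 ± 1.86 in Zeb1Prx1 (SD, n = 3). Eif2ak4 (GCN2, which senses uncharged tRNA) had 4.07 ± 0.518 and 3.36 ± 0.681. The haem-regulated Eif2ak1 had 10.5 ± 1.00 and 9.70 ± 0.650, and the double-stranded RNA sensor Eif2ak2 10.7 ± 2.51 and 8.43 ± 2.72. The median log2 change of the 4 was -0.16, and the RNA level of a kinase does not measure its activity. Of 16 genes of the eIF2, eIF2B and phosphatase machinery, 2 lay higher and 1 lower in every mutant library, beside 12.6% and 11.8% of all tested genes. Their median log2 change was 0.07. The most abundant, the phosphatase subunits Ppp1ca and Ppp1cc, had 137 ± 7.48 against 160 ± 36.4 and 58.5 ± 2.96 against 55.4 ± 7.85 FPKM, both with overlap.

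Other genes near the pathway, listed by function, were counted in the same way, and 0 genes of any list passed the adjusted threshold. Of all tested genes, 12.6% were higher and 11.8% lower without overlap, and 51.9% had a log2 change above 0. Cytosolic aminoacyl-tRNA synthetases, which charge tRNA and many of which are Atf4 targets, were above 0 in 19 of 20, but 2 lay higher without overlap and the median was 0.21. Their most abundant members were Nars (108 ± 22.9 against 132 ± 41.7 FPKM) and Gars (63.8 ± 14.2 against 87.5 ± 19.7), both overlapping. In 16 of the 20 the highest mutant library was replicate 2. Other reported Atf4 targets had a median of 0.04 over 23 tested genes, with 2 higher and 1 lower; the autophagy receptor Sqstm1 had 122 ± 18.8 and 124 ± 30.3 FPKM, and the factor Nfe2l1 68.9 ± 15.3 and 78.5 ± 15.0. Other amino acid and one-carbon enzymes had a median of 0.09 over 19 tested genes, 1 higher and 0 lower, with Glud1 at 85.8 ± 4.20 and 78.7 ± 10.2 and Mat2a at 39.2 ± 3.76 and 34.4 ± 1.58.

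Amino acid transporters outside the members were mostly lower, with 8 of 12 tested genes below 0 and a median of -0.38. Without overlap 4 were lower and 1 higher, beside 11.8% and 12.6% of all tested genes. Slc6a6, the taurine carrier, had 101.4, 131.8 and 132.0 FPKM in WT and 82.0, 40.2 and 61.2 in the mutant, every mutant library being lower. Slc43a2, a carrier of neutral amino acids, had 30.6 ± 3.24 and 21.0 ± 6.996 FPKM with overlap. In 10 of the 12 replicate 2 was the lowest mutant library. The median length was 6128 bases over all 14 listed, tested or not. The 1 higher transporter was Slc7a3, a carrier of cationic amino acids, named after its values were seen, at 0.996, 0.688 and 1.29 FPKM in WT against 8.32, 5.70 and 3.32 in Zeb1Prx1, a ratio of 5.83.

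Neighbouring stress pathways were summarised in the same way. As the members were chosen from these data, nothing is read from how their medians compare with these lists. Over all tested genes, 51.9% were above 0, 12.6% higher and 11.8% lower without overlap. Genes of the Atf6 and Xbp1 branches of the unfolded protein response, which enlarge folding capacity in the endoplasmic reticulum, had a median log2 change of 0.21, with 16 of 20 above 0, 5 higher and 1 lower without overlap. The chaperone Hspa5 had 221, 211 and 188 FPKM in WT and 228, 296 and 268 in the mutant, with no overlap, while Calr overlapped at 323 ± 25.0 and 369 ± 61.5. Mitochondrial chaperones and proteases were above 0 in 10 of 10 with a median of 0.19, but 0 of them separated the genotypes, Hspa9 having 94.5 ± 11.4 and 121 ± 23.7 FPKM and Hspd1 67.8 ± 24.1 and 80.4 ± 18.9. Hypoxia targets had a median of 0.18, with 0 higher and 1 lower; P4ha1 had 75.8 ± 21.8 and 107 ± 32.1 FPKM, and Egln1 36.6 ± 13.9 and 39.1 ± 10.4. Medians were -0.09 for Nrf2 targets, with 1 of 12 higher (Prdx1 270 ± 40.9 and 297 ± 119, Hmox1 219 ± 46.2 and 211 ± 21.4), and -0.06 for p53 targets, also with 1 of 12 higher. The higher p53 target was Phlda3, at 96.4 ± 7.80 and 137 ± 47.8, whereas Ccng1 had 131 ± 37.1 and 126 ± 11.6 FPKM.

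**Figure D4:**
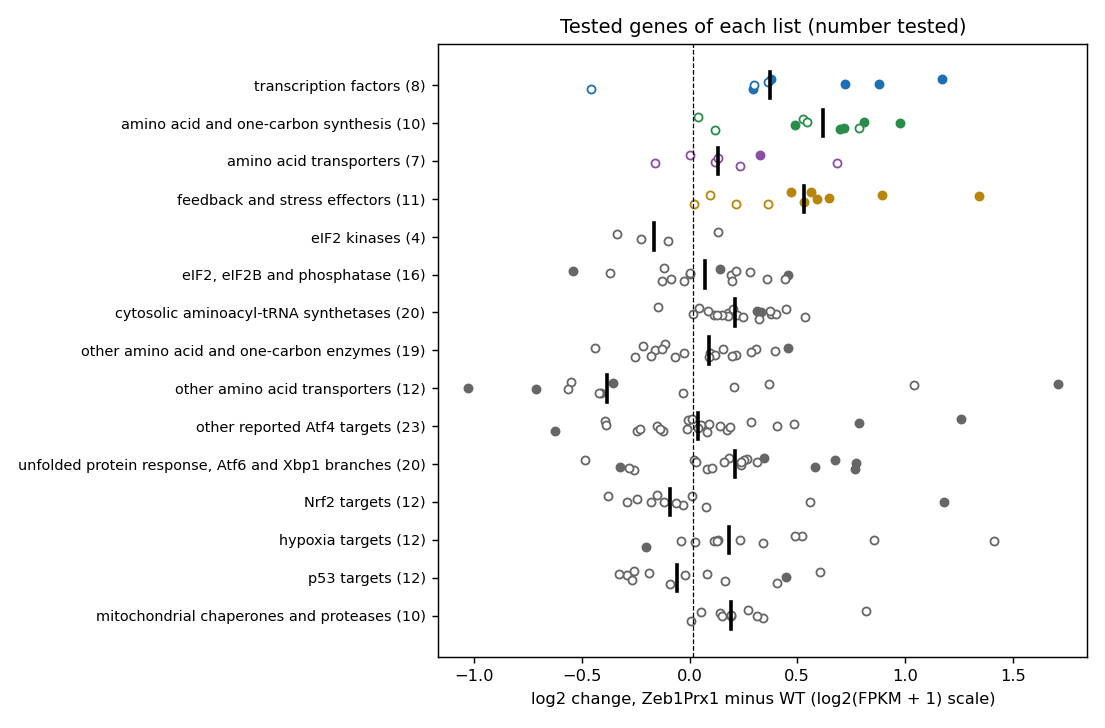
Log2 change of each tested gene in the 4 roles of the members (coloured) and in 11 other lists (grey), on the log2(FPKM + 1) scale; filled points mark genes whose genotypes do not overlap, black bars the median of each list and the dashed line the median of all tested genes, 0.02. The medians of synthesis genes (0.62), effectors (0.53) and factors (0.37) lie to the right of the other lists, whose medians run from -0.38 to 0.21. The members were chosen from these data, so their place beside the other lists is a description.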

How the data were processed

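RNA-seq libraries of 3 WT and 3 Zeb1Prx1 samples were read with 150 bp paired ends, per the labels' protocols. The authors deposited FPKM per gene with gene lengths, per the file headers, and named mm10 as genome build, per the submitters' processing notes. For aligner, counter and strand, nothing is given in the sources used here. FPKM multiplied by length gave whole fragments for 127408 of 127408 nonzero values (relative tolerance 1e-06). In R 4.3.3, limma 3.58.1 was fitted with an intensity trend to log2(FPKM + 1) of 12534 genes with at least 1 FPKM in at least 3 of 6 libraries, with Benjamini-Hochberg adjustment. This scale understates changes of low genes. The test was run on simulated fragments with the same dispersion for all genes and no outlying library. Such a check does not cover a library like Zeb1Prx1 replicate 2. The members and lists were chosen with earlier results of these data known. All 6 values are given for Atf4, Atf3, Atf5, Ddit3, Trib3, Chac1, Asns, Slc7a11 and each member whose genotypes do not overlap; other members are given by mean and SD or range. Of each other list the 2 most abundant genes are named, and all 4 eIF2 kinases. Alternatives were other pseudocounts, filters and scalings, length trend removal (lowess), a replicate block, no intensity trend, library weights, voom, and leaving out each library. "Higher without overlap" means that the lowest mutant library exceeded the highest WT library.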

Additional observations from a re-analysis of the deposited data

How the results depend on the processing

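Each genotype had 3 libraries, and tested members had 51 to 7929 fragments per library. With library weights, 447 genes passed, the weights being 0.226 for Zeb1Prx1 replicate 2 and 2.82 for replicate 3. Leaving out 1 library each gave 0 to 1 calls, the 1 without Zeb1Prx1 replicate 2. With equal FPKM sums 10 members were higher without overlap, beside 7.93% of all tested genes, and the members' median log2 change was 0.32. Members lower without overlap numbered 1 (Atf3) with equal FPKM sums, quantile scaling or the length trend removed, and 0 to 1 when 1 library was left out: Atf3 without WT replicate 3 or Zeb1Prx1 replicate 2, Sesn2 without Zeb1Prx1 replicate 1. Leaving out each library in turn gave 18 to 21 members higher without overlap, beside 15.6 to 21.8% of all tested genes, and medians of 0.40 to 0.52. Deviations from the genotype mean had correlations of 0.03, -0.41 and 0.08 between same-numbered libraries. Between differently numbered libraries the correlations ran from -0.48 to 0.46. With 3 libraries per genotype, such values cannot settle whether the replicate numbers pair the samples. With a replicate block, 0 genes passed, with 775 higher and 572 lower at an unadjusted p under 0.05. In this balanced design a block cannot change a log2 change, so the members' median of 0.48 was fixed in advance. Of 642 values of single members under alternatives, 12 moved by more than the spread between replicates. The 642 include the replicate block, the fit without intensity trend and other filters, which leave a member's log2 change unaltered. Among the 12 were those of Atf4 after equal FPKM sums, after quantile scaling and with the length trend removed. Equal FPKM sums and library weights each changed the sign of 7 members with small changes. The causes were not tested.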
